A study of Homo sapiens with 12 samples.

Results

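In each of 4 transfections of HMEC-1 endothelial cells, 1 of the 3 libraries carries the replicate number 3, and these 4 libraries of 12 in all are described here against the 8 libraries numbered 2 and 4. They were chosen by that number alone, as it stands in the sample titles, and not by a measured value, although the choice was made knowing that interferon-stimulated genes had been seen to differ between the numbers. HMEC-1 cells are human endothelial cells of small skin vessels, made immortal with a viral antigen. All groups share this line, its endothelial growth medium, a lipid transfection with 50 nM of a synthetic RNA and a harvest after 48 h. The synthetic RNAs were a scrambled RNA with no intended target, which served as the control, and mimics of the microRNAs miR126, miR143 and miR150. Each group has a library numbered 2, 3 and 4, so the tests compare libraries of the same transfected RNA, whereas statements on whether 4 libraries overlap with 8, and ranges over groups, run across transfected RNAs. What the number marks is not said in the labels, nor whether same-numbered libraries were grown or handled together, and p-values therefore measure only how these libraries vary, and that variation may be technical. Only this line was used, so other endothelial cells were not sampled.

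Type I interferons are secreted proteins that a cell makes when its sensors meet foreign or misplaced nucleic acid, among them double-stranded RNA. They bind a receptor pair, IFNAR1 and IFNAR2, whose kinases JAK1 and TYK2 activate transcription factors. With IRF9 these form a complex that binds a short repeated sequence before the start of interferon-stimulated genes, whose products block viral entry, RNA and translation. Endothelial cells respond to interferon and also use it to alter antigen display and leukocyte attraction.

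The sequences that follow are the stretches before the start of 5 of the genes that differed most, shown because they carry the repeat that this complex binds. Of the 15 largest rises 11 had a promoter entry and 8 of these held the repeat, while RSAD2, CMPK2 and BEX1 did not, and it was in 0 of the 6 entries among the 15 largest falls. Each is printed 5′ to 3′ on the strand of its gene, from RefSeq on GRCh38.p14, and capitals mark every match to GAAANNGAAA or to its reverse complement, with overlapping matches run together. 
IFI27 (chr14:94110598-94110680, plus strand): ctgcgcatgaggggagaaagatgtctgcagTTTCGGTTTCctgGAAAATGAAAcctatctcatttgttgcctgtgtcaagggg
BST2 (chr19:17405715-17405790, minus strand): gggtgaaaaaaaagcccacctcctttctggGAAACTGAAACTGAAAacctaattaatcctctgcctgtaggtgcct
IFIT1 (chr10:89392477-89392559, plus strand): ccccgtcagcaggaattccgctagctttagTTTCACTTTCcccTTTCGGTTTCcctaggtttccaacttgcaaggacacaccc
IFI6 (chr1:27672246-27672365, minus strand): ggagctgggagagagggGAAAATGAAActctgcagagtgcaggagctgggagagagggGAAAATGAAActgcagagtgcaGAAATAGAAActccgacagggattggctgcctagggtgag
ISG15 (chr1:1013354-1013429, plus strand): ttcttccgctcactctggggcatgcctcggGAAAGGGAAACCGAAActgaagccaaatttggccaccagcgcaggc
The first match begins 108 bases before the annotated start of IFI27, 130 before that of BST2, 116 before that of IFIT1, 156 before that of IFI6 and 113 before that of ISG15. In windows of 300 bases, 250 before the start and 50 after it, the motif stood on either strand in 996 of 27305 RefSeq promoters (3.65%) and in 294 of the 9976 tested genes that had an entry (2.95%). Of the genes of 5 interferon response lists, described below, that were higher in replicate 3, 54 had an entry and 32 of these held the motif (59.3%). Among all genes that were higher it was 79 of 1399 (5.65%), and among genes that were lower 23 of 906 (2.54%). A match is a description of these letters and not evidence of binding in these cells. The 54 genes come from lists of interferon response genes, and the share among listed genes that were not called was not counted. The 59.3% therefore does not tie the motif to the difference of replicate 3.

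Expression was given as TPM, an abundance scaled to transcript length and to the same total in every library, and was summed per gene and tested with limma on log2(TPM + 1) with the transfected RNA as a block. Of 13750 tested genes, 1886 (13.7%) were higher and 1177 (8.56%) lower in the replicate 3 libraries at an adjusted p under 0.05, and of these 283 and 97 had a log2 difference of 1 or more in size. The median of all tested genes was 0.0917, and with each library centred on its median gene it was 1590 higher and 1536 lower. It was 1772 and 1873 after quantile normalization, 1485 and 1368 with each chromosome centred, and 2156 and 2253 after removal of a trend on transcript length. Replicate 3 lay above both other libraries of its transfected RNA in all 4 transfections for 2594 genes and below both for 1296. All 4 of its libraries lay above all 8 others for 771 genes (5.61%) and below them for 399 (2.9%), although the transfected RNAs themselves differed. A further point of description is that 99 genes reached the level needed for testing only through replicate 3, of which 92 were called higher, and these had to differ.

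The difference was present against each other number by itself. Against replicate 2, 1281 genes were higher (9.32%) and 1070 lower (7.78%); against replicate 4, 2990 were higher (21.7%) and 1124 lower (8.17%). Both comparisons use the same replicate 3 libraries. Between replicates 4 and 2, limma called 0 genes at an adjusted p under 0.05, with 2822 at an unadjusted p under 0.05 and a smallest adjusted p of 0.12. As 688 would be expected at that unadjusted threshold if p-values were uniform, the 0 calls do not show that replicates 2 and 4 are alike. Over all tested genes, the transfected RNA took 40.18% of the sum of squares, replicate 3 against the others 24.53%, replicate 4 against 2 10.17% and the remainder 25.12%. Whether the difference depends on the transfected RNA was tested as an interaction, for which 0 genes passed in limma and the smallest adjusted p was 0.627. For the interaction 138 genes had an unadjusted p under 0.05, fewer than the 688 expected if uniform. This does not show that the 4 differences are equal.

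Across libraries, 13120 to 13564 genes reached 1 TPM in replicate 3 and 12299 to 13255 in the others, and the number of reads behind these values is not known. Within a transfected RNA, log2(TPM + 1) correlated across genes, which are not independent replicates, with r of 0.968 to 0.99 between replicates 2 and 4 and of 0.952 to 0.977 between replicate 3 and either. The libraries miR143 replicate 4 and miR150 replicate 4 stood apart, as they held more of short transcripts, with a Spearman correlation of deviation and transcript length of -0.397 and -0.546, against -0.00866 to 0.225 in replicate 3. Without these 2 libraries 2518 genes were higher and 2195 lower, and counts without them are given beside the lists below. The plot of difference by mean level shows where the lists described next lie among all genes.

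**Figure D1:**
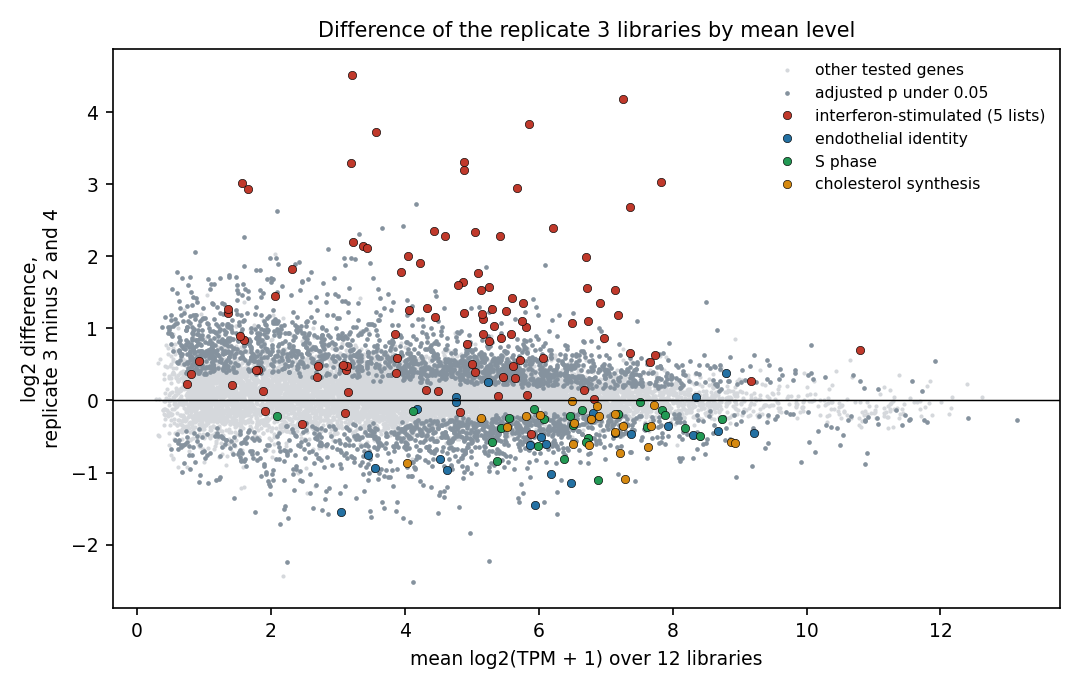
Log2 difference of replicate 3 minus replicates 2 and 4 (vertical axis) against the mean log2(TPM + 1) over 12 libraries (horizontal axis), 1 point per tested gene, with genes at an adjusted p under 0.05 in dark grey and 4 gene groups in colour; XIST and genes of chromosome Y are not drawn. The interferon group, drawn from 5 lists that also hold some signalling genes, has the largest positive differences, up to 4.53 for MX2, while endothelial, S phase and cholesterol genes lie mostly below 0.

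Interferon-stimulated genes made up 12 of the 15 largest rises in replicate 3. The 5 lists of genes of the response (transcription factors, nucleic acid sensors, antiviral effectors, the ISG15 system, and induced PARP and TRIM proteins) name 102 genes, of which 99 were tested, 73 were higher, 1 was lower and 25 did not pass. Not every member is itself a stimulated gene, as signalling genes such as IRF3, MAVS and TBK1 are among them. The median difference over these 99 was 1.08 against 0.0917 over all tested genes, and 0.806, 1.22, 1.05 and 0.979 in cells given the scrambled RNA, miR126, miR143 and miR150. Against replicate 2 alone 67 were higher and 1 lower, and against replicate 4 alone 83 and 1. All 4 replicate 3 libraries lay above all 8 others for 20 of them. Among replicates 2 and 4 the miR126 libraries were the highest. Their mean log2(TPM + 1) was 3.798, 4.855 and 3.744 with the scrambled RNA (replicates 2, 3 and 4), 5.141, 6.316 and 4.807 with miR126, 4.611, 5.665 and 4.238 with miR143, and 4.012, 5.075 and 3.561 with miR150. Replicate 3 was thus the highest in each transfection, and its scrambled library lay between the miR126 libraries numbered 4 and 2.

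Antiviral effectors act on the virus itself, and 36 of 48 tested were higher and 1 lower, with a median of 1.27. The largest difference was that of MX2 (GRCh38 chromosome 21, 41361943 to 41409390), a GTPase that traps viral capsids, at 25.9, 290.2, 101 and 39.1 TPM in replicate 3 of the scrambled RNA, miR126, miR143 and miR150, the order used from here on. The other 8 libraries held 0.68 to 15.7 TPM (median 1.61), below every replicate 3 library, and the log2 difference was 4.53 ± 0.31 (SE, 4 against 8 libraries), adjusted p = 1.12e-05. MX1, its neighbour on the chromosome (GRCh38 chromosome 21, 41420304 to 41459214) and a GTPase against RNA viruses, was at 142, 851, 512 and 219.9 TPM against 6.81 to 155 TPM (median 20.8). Its groups overlapped, because miR126 replicate 2 exceeded the scrambled replicate 3, but within each transfected RNA replicate 3 was highest, with a difference of 3.84 ± 0.24 and adjusted p = 8e-06. 

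IFI27, a small mitochondrial and nuclear protein of the interferon response (GRCh38 chromosome 14, 94104836 to 94116698), stood at 691, 1839.8, 1528 and 641 TPM, and at 15.9 to 169 TPM (median 64.1) in the others. All 4 replicate 3 libraries were above all others, by 4.18 ± 0.21 on the log2 scale (adjusted p = 2.37e-06). IFI6, which keeps viruses from remodelling the endoplasmic reticulum, held 502, 1746, 1318 and 624 TPM against 36.3 to 333 TPM (median 119.7), also without overlap (3.03 ± 0.14, adjusted p = 1.7e-06). IFIT1, which binds viral RNA that lacks the host cap, was at 41, 374, 207 and 82.6 TPM against 3.2 to 62.7 TPM (median 14.7), a difference of 3.19 ± 0.14 (adjusted p = 1.7e-06) with overlap through miR126 replicate 2. BST2, the tether that holds budding virus at the cell surface, held 19.6, 155, 49.6 and 18.1 TPM against 1.14 to 17.5 TPM (median 1.97), and its lowest replicate 3 library was just above the highest other (3.29 ± 0.19, adjusted p = 4.97e-06). Other members with large differences were IFI44L (3.73), the entry inhibitor IFITM1 (3.31), whose sequence is close to those of IFITM2 and IFITM3, viperin, encoded by RSAD2 (3.02), OAS2 (2.95), an enzyme that senses double-stranded RNA, and CMPK2 (2.94), a nucleotide kinase that overlaps RSAD2 on the other strand, so that reads of the pair may not be fully separate. RSAD2 and CMPK2 rose from near 0, at 2.2, 50.6, 19.4 and 5.04 TPM against 0.0221 to 2.86 TPM (median 0.302) for RSAD2. The exception was APOL3 (-0.47), an apolipoprotein L gene on chromosome 22, which was lower. Members that did not pass included TNFSF10 (0.13), a death ligand, and GBP2 (-0.33), a GTPase. The effectors summed to 5489, 15132, 11250.2 and 6871 TPM in replicate 3 and to 2173 to 5293 TPM in the others.

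**Figure D2:**
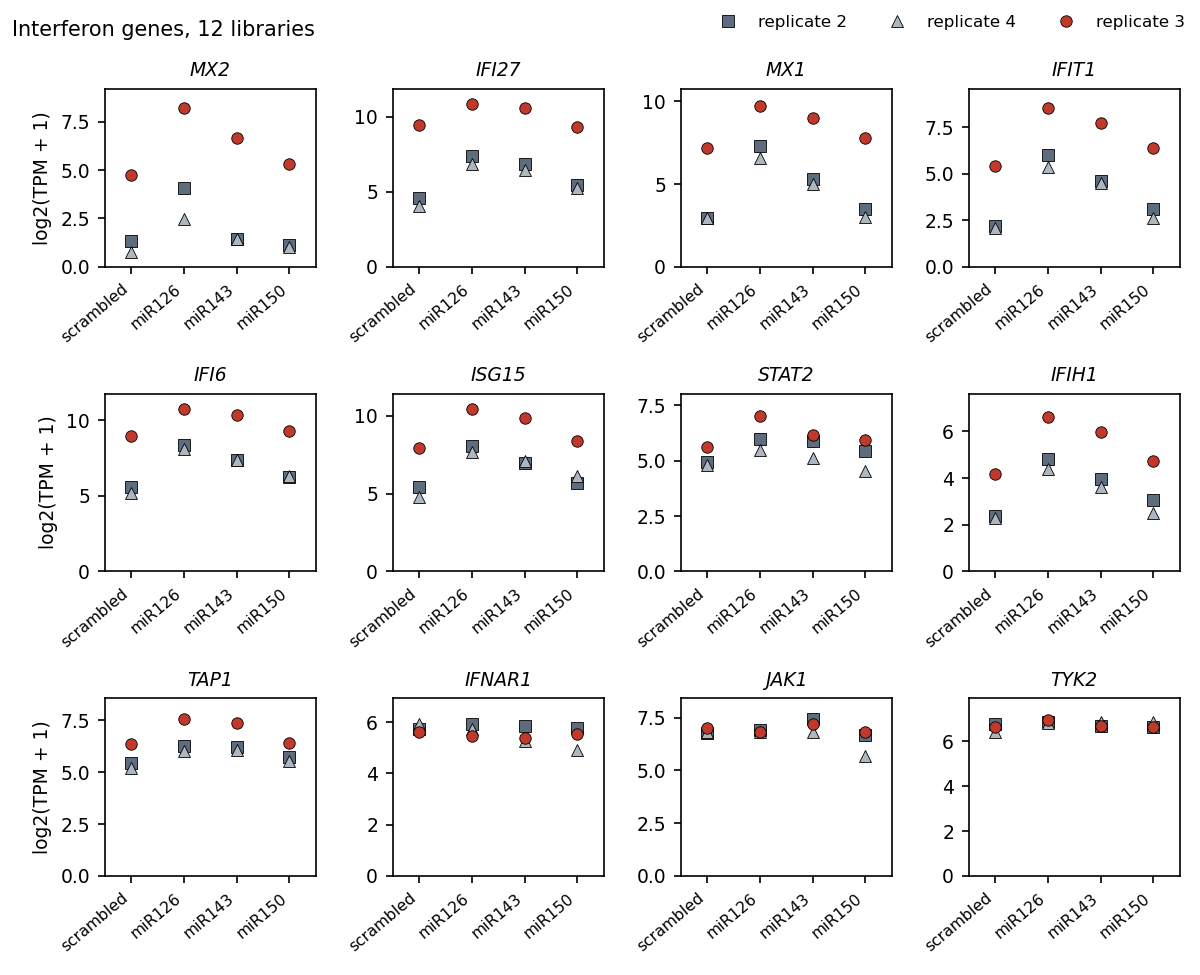
Log2(TPM + 1) of 12 interferon genes (vertical axes, each from 0) in the 12 libraries, by transfected RNA (horizontal axes), with replicate 3 in red, replicate 2 as squares and replicate 4 as triangles. Replicate 3 is the highest library of each transfected RNA for the 9 stimulated genes, whereas for IFNAR1, JAK1 and TYK2, none of which passed the test, it is not the highest in all 4.

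Of the genes upstream of this response, the interferon ligands were near 0. None of 10 ligand genes reached the level for testing; IFNB1, the interferon that most cell types make first, was at most 0.946 TPM in replicate 3 and at most 0.131 TPM elsewhere, and was listed at 0 in 8 of 12 libraries. Receptors and their kinases did not pass in any case, 0 of 8 tested, with a median of 0.00238. IFNAR1, for example, was at 48.3, 43.5, 40.7 and 45.2 TPM against 29.5 to 60.5 TPM (median 52.8) (-0.14 ± 0.16, adjusted p = 0.583), IFNAR2 differed by -0.23 ± 0.11, JAK1 by 0.23 ± 0.19 and TYK2 by -0.025 ± 0.082. The kinase JAK2 (0.36), the interferon gamma receptor chains IFNGR1 (0.10) and IFNGR2 (-0.074) and the shared chain IL10RB (0.029) did not pass either, and IFNLR1, a receptor for lambda interferons, was below the level for testing. After removal of the length trend 3 members were called lower, and without the 2 libraries rich in short transcripts 1 was.

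Transcription factors of the response were higher in 10 of 15 cases, none lower, with a median of 0.53. IRF9, the DNA-binding subunit of the complex, was at 125, 166, 162 and 139.5 TPM against 43.9 to 116 TPM (median 71.2), all 4 above all 8 (1.08 ± 0.15, adjusted p = 0.000623). Its partner STAT2 was at 48.4, 130.1, 71 and 61.1 TPM against 22.2 to 63 TPM (median 37.8), highest in replicate 3 of each transfection (0.93 ± 0.20, adjusted p = 0.00851). IRF7, which drives later interferon production, differed by 1.21 ± 0.14 (adjusted p = 0.000198), SP110, a nuclear body protein, by 1.25, ETV7, a repressor, by 1.22, and IFI35 by 1.13. Smaller rises passed for IRF1 (0.48), an activator of antigen display genes, the nuclear body protein SP100 (0.53) and NMI (0.31). IRF3, which is switched on by phosphorylation, did not pass (0.14), nor did IRF2 (-0.16), IRF5 (0.36), BATF2 (0.42) or SP140L (0.39).

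Among sensors of nucleic acid and their adaptors, 9 of 15 were higher and none lower, with a median of 0.425. The RNA sensor MDA5, encoded by IFIH1, was at 17.2, 97.9, 61.9 and 25.5 TPM against 3.83 to 27.3 TPM (median 9.22) (2.00 ± 0.13, adjusted p = 9.24e-06). RIG-I, the other cytosolic RNA sensor, encoded by DDX58 on chromosome 9, was at 22.5, 99.6, 54.3 and 30.2 TPM against 6.05 to 27.8 TPM (median 9.51) (1.90 ± 0.14, adjusted p = 1.89e-05). Both were highest in replicate 3 of every transfection, with the miR126 libraries the highest of each number. The kinase PKR (EIF2AK2), which stops translation when it binds double-stranded RNA, differed by 1.36 ± 0.28 (adjusted p = 0.00626) with no overlap, as did ZNFX1 (1.03). DDX60 (0.92), DHX58 (0.84), the DNA sensors IFI16 (0.63) and cGAS (CGAS, 0.42) and the adaptor TICAM1 (0.38) rose as well. The adaptors MAVS (0.15) and STING (TMEM173, 0.023), the kinases TBK1 (0.32) and IKBKE (0.33), and the receptors TLR3 (-0.18) and ZBP1 (0.23) did not pass. AIM2, a DNA sensor, was below the level for testing.

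ISG15, a ubiquitin-like protein that is joined to others during the response, stood at 245, 1375, 905 and 336 TPM against 26.3 to 259 TPM (median 96.4), with overlap only between the scrambled replicate 3 and miR126 replicate 2 (2.68 ± 0.14, adjusted p = 2.37e-06). Of its conjugation system 5 of 7 were higher, including the ligases HERC5 (1.82) and HERC6 (2.20), the conjugating enzyme UBE2L6 (1.11) and USP18 (1.16), which removes ISG15 and also blocks the receptor. HERC5 and HERC6 are on chromosome 4 and USP18 on chromosome 22, where the median gene was lower in replicate 3. The activating enzyme UBA7 did not pass (0.071). PARP and TRIM proteins rose in 13 of 14 cases, among them TRIM22 (2.28), TRIM14 (1.61), PARP14 (1.43) and the head-to-head pair PARP9 (1.58) and DTX3L (1.53). Negative regulators were higher in 3 of 7 tested, SOCS3 (0.49), PTPN1 (0.42) and USP18, with a median of 0.267. Without the 2 libraries rich in short transcripts, the counts higher were 36 effectors, 11 transcription factors, 10 sensors, 5 of the ISG15 system and 13 PARP and TRIM genes, and with each library left out in turn 34 to 39 effectors were higher.

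At the level of single transcripts, 884 of 58341 tested (1.52%) were higher and 658 (1.13%) lower. The interferon lists hold 79 genes with at least 2 tested transcripts, and of these genes' 505 transcripts 141 were higher and 2 lower, spread over 52 genes. The 2 lower ones, APOL3-204 and APOL3-205, had the same values. IFIT3 has 2 tested transcripts with the same coding length of 1470 bases. IFIT3-201 averaged 86.4 against 10.2 TPM (2.90 ± 0.15, adjusted p = 4.24e-05) and IFIT3-202 41.6 against 14.0 TPM (1.57 ± 0.22, adjusted p = 0.00584); the difference between these differences was not tested. MX1-202 averaged 371.6 against 32.1 TPM (4.35 ± 0.35, adjusted p = 0.000423), and IFITM1-202 157.3 against 8.45 TPM (4.36 ± 0.44, adjusted p = 0.0012). A pseudo-aligner divides shared reads among overlapping transcripts, so values of near-identical ones are uncertain.

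Genes of antigen display rose in part. Of 16 tested genes of the MHC class I pathway 7 were higher and none lower, with a median of 0.4. HLA-B, a class I heavy chain, was at 1165, 2342, 1977 and 1008 TPM against 579 to 1355 TPM (median 916) (0.77 ± 0.075, adjusted p = 9.85e-05), and the groups overlapped across transfections. TAP1, a subunit of the peptide transporter, held 81.4, 191, 167 and 85.4 TPM against 36.4 to 76.7 TPM (median 58.2) without overlap (1.12 ± 0.10, adjusted p = 6.19e-05), and TAP2 differed by 0.63, HLA-F by 1.18 and the regulator NLRC5 by 0.79. HLA genes are near-identical and have several haplotype copies in the table, which were summed. The immunoproteasome, which cuts peptides for class I, had 3 of 6 higher (PSMB9 0.72, PSME2 0.49, PSMB8 0.40). Of the 3 constitutive catalytic subunits none was higher and PSMB6 was lower (-0.30), a call that was lost under 12 of 23 alternatives. Against replicate 2 alone 1 of these 3 was higher and none lower, and against replicate 4 alone 1 was lower and none higher. After centring on the median gene or on chromosome medians, 1 of the immunoproteasome genes passed. Class II genes were mostly below the level for testing. Of 11 genes 5 were tested, HLA-DMA (0.95) and CTSS (0.31) rose, and HLA-DRA was listed at 0 in all 12 libraries. Genes typical of interferon gamma were higher in 4 of 7 tested cases, namely GBP1 (1.64), ICAM1 (0.96), the checkpoint ligand CD274 (0.74) and IRF1, while CXCL9, CXCL10, CXCL11 and IDO1 were below the level for testing.

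Inflammatory genes were higher in part. Chemokines and cytokines were higher in 9 of 15 cases, none lower, with a median of 0.703. IL1B, a pyrogenic cytokine, was at 9.7, 7.9, 8.37 and 9.69 TPM against 0.892 to 2.15 TPM (median 1.54), all 4 above all 8 (1.98 ± 0.17, adjusted p = 3.94e-05). CCL5, a T cell attractant, was at 7.19, 28.8, 21.3 and 7.1 TPM against 1.68 to 7.88 TPM (median 4.05) (1.62 ± 0.11, adjusted p = 9.24e-06), and the groups overlapped because miR126 replicate 2 exceeded the scrambled and miR150 libraries of replicate 3. IL6 differed by 1.11, CXCL12 by 1.05 and CSF3 by 1.19. NF-kappa-B signalling genes were higher in 8 of 14 cases, led by its feedback inhibitor TNFAIP3 (14.9, 20.0, 12.8 and 11.2 TPM against 1.32 to 9.27 TPM (median 4.55), 1.48 ± 0.26, adjusted p = 0.00241), with RELB (0.74), NFKB2 (0.71), TRAF1 (0.60) and BIRC3 (0.60) also higher. Of 9 leukocyte adhesion genes only ICAM1 and CD44 (0.69) passed, both higher, which is within about 1 gene of the share of all tested genes (13.7%).

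Complement genes were higher in 7 of 12 cases and lower in 1, with a median of 0.73. Their summed TPM went the other way in each transfection. It was 2691, 2074, 2362 and 2275 in replicate 3. In replicates 2 and 4 it was 2971 and 3148, 2242 and 2193, 2946 and 2674, and 2909 and 2522. C1S and C1R encode the 2 proteases of the first complement component and lie next to each other on chromosome 12. C1S was at 9.95, 13.7, 18.4 and 12.5 TPM against 0.247 to 3.01 TPM (median 1.46), and C1R at 21.1, 36.7, 33.5 and 23.4 TPM against 2.85 to 8.64 TPM (median 4.41). For both, every replicate 3 library lay above every other, with differences of 2.64 ± 0.29 (adjusted p = 0.000167) and 2.32 ± 0.14 (adjusted p = 4.97e-06). The near-identical pair C4A (0.97) and C4B (1.25) cannot be told apart with certainty, and CFB, a protease of the alternative pathway, differed by 1.23. 

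Genes listed as targets of p53, a factor that can stop the cell cycle after damage, were higher in 13 of 24 cases and lower in none, with a median of 0.478. The activity of p53 was not measured. CDKN1A, which encodes the cycle inhibitor p21, was at 251, 394, 277 and 273 TPM against 98.2 to 225 TPM (median 125), with no overlap (1.10 ± 0.11, adjusted p = 0.000123). MDM2, the ligase that degrades p53, differed by 1.22 ± 0.19 (adjusted p = 0.0012), the stress cytokine GDF15 by 1.22 ± 0.088 (adjusted p = 1.56e-05), the death receptor FAS by 1.36 and AEN by 0.87. BAX (0.0068) and DDB2 (-0.076) did not pass. FAS overlaps ACTA2, described below, on the other strand.

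S phase genes were lower in 16 of 24 cases and higher in none, with a median of -0.299, and all 24 estimates were negative. MCM5, a subunit of the replicative helicase on chromosome 22, was at 58.5, 101, 67.2 and 61 TPM against 111 to 206 TPM (median 146), all 4 below all 8 (-1.11 ± 0.074, adjusted p = 9.24e-06). MCM6, another subunit, on chromosome 2, was at 47.1, 65.9, 62.8 and 51.9 TPM against 79.1 to 129.8 TPM (median 99.8) (-0.81 ± 0.062, adjusted p = 2.3e-05), also without overlap. The origin firing factors GINS2 (-0.84) and CDC45 (-0.63) and the nucleotide enzyme TYMS (-0.50) were lower too. Of the G2 and M phase genes, 4 of 24 were lower and none higher, with a median of -0.0804: CCNA2 (-0.69), on chromosome 4, BIRC5 (-0.25), AURKB (-0.23) and CCNB2 (-0.18), while the proliferation marker MKI67 did not pass (0.27). Of all tested genes 8.56% were lower. Against replicate 2 alone 5 of this list were lower and none higher, and against replicate 4 alone 3 were lower and 2 higher. The list median was -0.0791, -0.166, -0.0941 and 0.0513 by transfected RNA. The calls of AURKB and CCNB2 were lost under 11 and 9 of 23 alternatives. Without the 2 libraries rich in short transcripts 14 p53 genes were higher, and 21 S phase and 10 G2 and M phase genes lower; the G2 and M count was 11 after removal of the length trend.

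Endothelial identity genes were lower in 15 of 24 cases and higher in 1, with a median of -0.47, and -0.455, -0.566, -0.603 and -0.329 by transfected RNA. SOX18, a transcription factor of vessel formation, was at 3.38, 2.97, 2.57 and 3.31 TPM against 8.29 to 13.9 TPM (median 11.2) (-1.55 ± 0.15, adjusted p = 9.58e-05). EMCN, the surface sialomucin endomucin (GRCh38 chromosome 4, 100395341 to 100880126), was at 34.4, 36.9, 27 and 25.7 TPM against 49.3 to 111 TPM (median 97.2) (-1.45 ± 0.12, adjusted p = 3.08e-05). For both, all replicate 3 libraries lay below all others. The junction protein ESAM held 57.6, 48.7, 55.6 and 45.7 TPM against 104 to 140.4 TPM (median 115) (-1.14 ± 0.075, adjusted p = 9.24e-06), and von Willebrand factor, VWF, 15.9, 13.9, 13 and 16.9 TPM against 25.5 to 35.5 TPM (median 29.7) (-0.96 ± 0.087, adjusted p = 5.59e-05), again without overlap. CD34 (-1.02), the tight junction gene CLDN5 (-0.93), SOX17 (-0.75), the angiopoietin receptor TEK (-0.61) and VE-cadherin, CDH5 (-0.48), were lower as well. PECAM1 did not pass, at 413, 325, 315 and 309 TPM against 166 to 688 TPM (median 508) (-0.42), nor did the VEGF receptor KDR (-0.62, adjusted p = 0.0503), ERG (-0.18) or NOS3 (0.044). The member that was higher is MCAM, an adhesion molecule that the table lists under the clone symbol AP002956.1 (0.38). The line is a bulk culture, in which fewer cells of a type and less RNA per cell cannot be told apart. Without the 2 libraries rich in short transcripts 18 were lower, with each chromosome centred 15, and with single libraries left out 9 to 18, with 9 reached without replicate 3 of miR126 or of miR143.

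Of the marker sets of cell types, the 15 endothelial markers summed to 2275 to 2918 TPM in replicate 3 and to 2801 to 3815 TPM in the others, ranges that overlap across transfections, and 10 of the 15 were lower and 1 higher. The sum over the 24 endothelial identity genes was below both matched libraries in each transfection, at 3256, 2526, 3215 and 2888 TPM in replicate 3, against 3762 and 4177, 3285 and 3348, 4267 and 4119, and 3869 and 3107 TPM in replicates 2 and 4. Fibroblast and pericyte markers summed to 82.72 to 118.2 against 46.04 to 142.5 TPM, with DCN, LUM, PDGFRA and DES under 1 TPM in every library, and of 7 tested ACTA2 and TAGLN were higher and COL1A1 and COL1A2 lower. Epithelial and keratinocyte markers summed to 579.5 to 964 against 449.1 to 1027 TPM, with CDH1, KRT5 and KRT14 under 1 TPM everywhere, although KRT7, a keratin of simple epithelium and some endothelium from the wider list, was at 609, 701, 657 and 767 TPM against 232 to 349.9 TPM (median 251) (1.37 ± 0.066, adjusted p = 1.98e-06) and 3 of 7 of that list were higher and 1 lower. Of these 3, the keratin KRT17 (0.77), reached the level for testing only through replicate 3 and had to differ. Leukocyte markers summed to 48.68 to 70.25 against 27.36 to 53.17 TPM, almost all from CD68 (0.59), a lysosomal protein that was 1 of 2 tested and higher, with CD3E, LYZ and ITGAM under 1 TPM everywhere. The 4 lymphatic markers summed to 62.73 to 137.4 against 70.47 to 147.2 TPM, and 2 of 5 genes of the lymphatic list were lower, FLT4 and MMRN1 (-0.96).

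Vessel growth factors and their receptors were lower in part. Of 16 VEGF and angiopoietin genes 7 were lower and 2 higher, with a median of -0.369, against 8.56% lower and 13.7% higher of all tested genes. The count higher is near that share and is no result about this list. FLT4, the receptor for VEGFC, was at 1.46, 1.98, 1.39 and 0.759 TPM against 3.14 to 6.57 TPM (median 6.32), all 4 below all 8 (-1.46 ± 0.11, adjusted p = 1.89e-05). VEGFC itself (-0.92) and the co-receptor NRP2 (-0.68) were lower, whereas ANGPT2, which opposes the TEK ligand ANGPT1, was higher at 6.95, 21, 9.31 and 8.6 TPM against 1.44 to 10.4 TPM (median 3.44) (1.26 ± 0.14, adjusted p = 0.000178), and VEGFA by 0.66. NOTCH genes were lower in 4 of 14 cases and higher in 1, namely MFNG (-1.04, on chromosome 22), LFNG (-0.84), NOTCH4 (-0.71) and HES1 (-0.55) lower and HES4 (1.01) higher. WNT and Norrin genes were lower in 2 of 13 cases and higher in 1, within about 1 gene of the shares of all tested genes (8.56% lower, 13.7% higher).

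The largest fall was in a collagen. COL1A2 (GRCh38 chromosome 7, 94394561 to 94431232), which encodes a chain of type I collagen, was at 8.65, 3.48, 3.32 and 3.55 TPM against 16.4 to 80.1 TPM (median 25.9), all 4 below all 8 (-2.53 ± 0.15, adjusted p = 4.81e-06). COL1A1, the other chain, was at 5.46, 6.62, 5.34 and 5.13 TPM against 7.35 to 32 TPM (median 17.5) (-1.40 ± 0.23, adjusted p = 0.00196), and MMP2, a gelatinase, at 22.1, 8.87, 10.5 and 11.9 TPM against 37 to 226 TPM (median 43.4) (-2.23 ± 0.20, adjusted p = 4.8e-05), both without overlap. The scrambled libraries held the most COL1A2 and MMP2 in every number. Of 28 matrix genes 8 were lower and 1 higher, with NID2 (-0.92) and biglycan, BGN (-0.84), among the former and tenascin C, TNC (1.06), the latter, and the count lower was 14 to 18 after centring on the median gene or on chromosome medians, after removal of the length trend or without the 2 libraries rich in short transcripts. Basement membrane collagens COL4A1 (0.019) and COL4A2 (-0.082) and fibronectin, FN1 (-0.16), did not pass. Matrix proteases and inhibitors split, with 4 of 19 lower, among them MMP10 (-1.11), and 6 higher, among them ADAMTS4 (1.22), TIMP1 (0.64) and PLAUR (0.63).

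The genes TAGLN and ACTA2, of the list of TGF-beta and mesenchymal genes, were higher. TAGLN, which encodes the actin-binding protein SM22, was at 53, 61.1, 37.9 and 40.3 TPM against 5.77 to 13.3 TPM (median 7.16), and ACTA2, smooth muscle actin, at 25.1, 28.6, 18.1 and 17.6 TPM against 2.38 to 10.4 TPM (median 5.09). All 4 replicate 3 libraries lay above all 8 others for both, by 2.43 ± 0.14 (adjusted p = 4.97e-06) and 1.99 ± 0.25 (adjusted p = 0.000345). That list as a whole split into 7 higher and 7 lower of 26, with a median of -0.0221, with S100A4 (-1.53) and SNAI2 (-1.02) lower and TWIST1 (0.87) higher. Integrins and focal adhesion genes were 3 higher and 3 lower of 20, with the actin linker ACTN1 higher (0.66) and ITGB5 (-0.72), ITGA5 (-0.57) and ITGB4 (-0.58) lower. YAP and TEAD targets were 3 higher and 2 lower of 21. The counts of integrin genes higher and of YAP and TEAD targets in both directions are near the shares of all tested genes, 13.7% higher and 8.56% lower, and are no result about these lists.

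**Figure D3:**
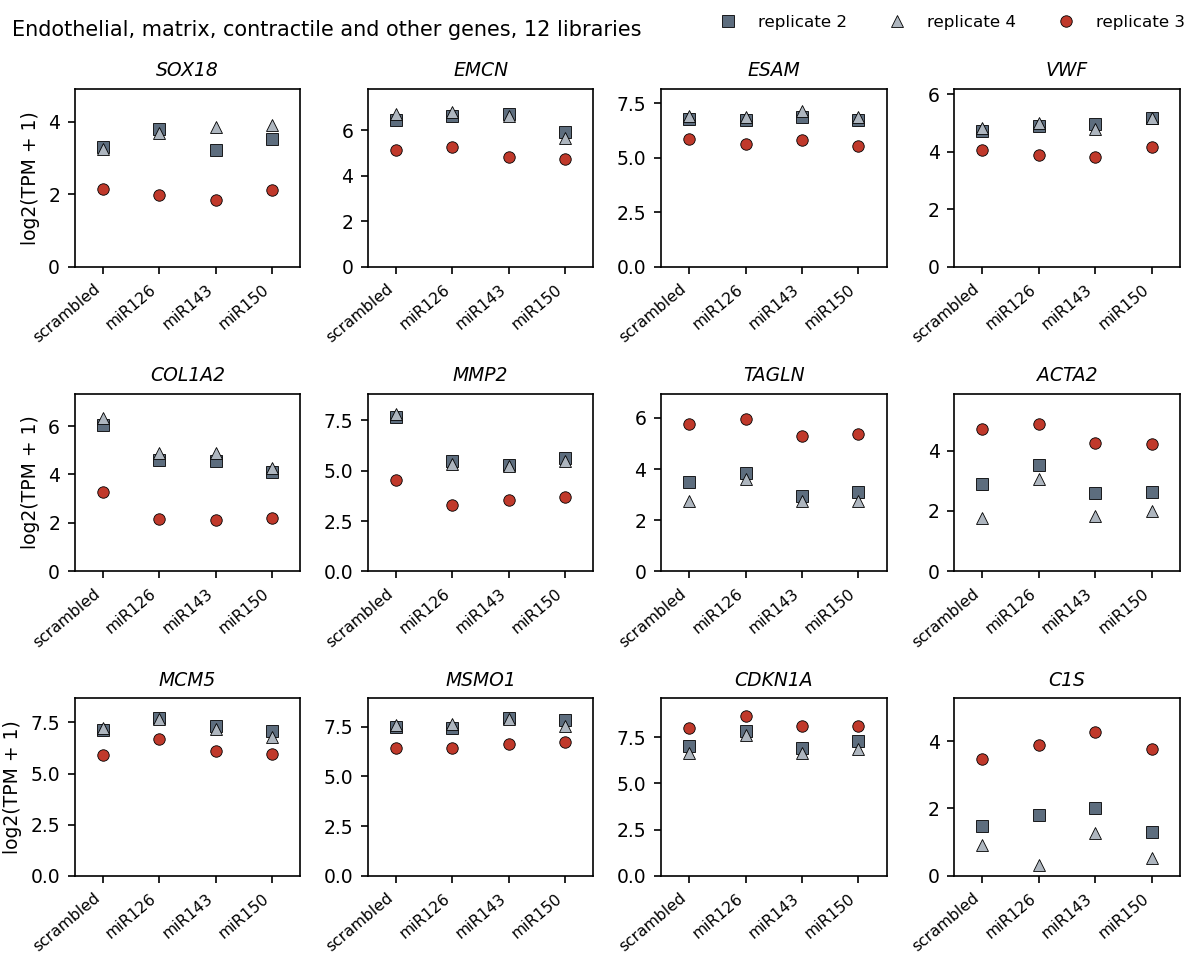
Log2(TPM + 1) of 12 genes (vertical axes, each from 0) in the 12 libraries by transfected RNA (horizontal axes), with replicate 3 in red, replicate 2 as squares and replicate 4 as triangles. For each of these genes replicate 3 lies outside both other libraries of every transfected RNA, below them for SOX18, EMCN, ESAM, VWF, COL1A2, MMP2, MCM5 and MSMO1 and above them for TAGLN, ACTA2, CDKN1A and C1S.

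Among the remaining genes with the largest differences, BEX1, a small adaptor protein on the X chromosome, was at 43.8, 91.5, 64.2 and 57.4 TPM against 5.3 to 17 TPM (median 7.64), without overlap (2.72 ± 0.10, adjusted p = 1.5e-06). TMEM98, a membrane protein, was at 0.488, 0.98, 0.466 and 0.831 TPM against 5.01 to 9.51 TPM (median 6.61) and so nearly absent from replicate 3 (-2.24 ± 0.12, adjusted p = 4.12e-06). GMFG, an actin regulator, was at 9.64, 18.9, 14.8 and 8.83 TPM against 30.5 to 69.6 TPM (median 47.8) (-1.84 ± 0.17, adjusted p = 5.63e-05). GSTT1, a glutathione transferase, was at 6.21, 7, 5.88 and 6.71 TPM against 17.9 to 26.4 TPM (median 22.1), with little spread in either group (-1.63 ± 0.10, adjusted p = 6.83e-06). The other large falls were in FAP (-1.71), a surface protease, RGCC (-1.69), FXYD2 (-1.63), a sodium pump regulator, PCDH10 (-1.62), the fatty acid elongase ELOVL6 (-1.58), the hedgehog inhibitor HHIP (-1.58), the adhesion receptor ADGRL2 (-1.56), the transcription factor NFATC4 (-1.55) and TCIM (-1.54). PCDH10, ELOVL6 and HHIP lie on chromosome 4.

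Cholesterol synthesis genes, which SREBF2 controls, were lower in 13 of 22 cases and higher in none, with a median of -0.352 and all 22 estimates negative. MSMO1, a sterol oxidase on chromosome 4, was at 85.8, 85.6, 97.8 and 105 TPM against 169 to 243 TPM (median 194) (-1.09 ± 0.082, adjusted p = 1.89e-05). HMGCS1, which makes the precursor HMG-CoA, was at 104, 86.1, 123 and 110.3 TPM against 127 to 243 TPM (median 183) (-0.72 ± 0.096, adjusted p = 0.000505), and both were without overlap. INSIG1 (-0.64), MVD (-0.61) and SREBF2 itself (-0.61, on chromosome 22) were lower. With each chromosome centred 14 were lower, without the 2 libraries rich in short transcripts 18, and with single libraries left out 9 to 18. Fatty acid genes were lower in 2 of 10 cases, ELOVL6 and FADS2 (-0.38), a count that was 7 after centring on the median gene or removal of the length trend and 8 without those 2 libraries.

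Lists of stress genes differed in how many members were higher. Of 12 heat shock genes 11 were higher and 1 lower, with a median of 0.448; HSPH1, a chaperone, was at 214, 216, 212 and 224 TPM against 133 to 154 TPM (median 144), a narrow range in each group and no overlap (0.59 ± 0.059, adjusted p = 0.000105). HSPA1A (0.68) and its near-identical copy HSPA1B (0.57), BAG3 (0.56) and the mitochondrial pair HSPD1 (0.46) and HSPE1 (0.55) rose, and the small heat shock gene HSPB1 was lower (-0.59, adjusted p = 0.0132). With each library centred on its median gene 7 were higher. The amino acid stress response was higher in 11 of 20 cases and lower in 2, with ATF3 (1.32), CEBPB (0.79), the serine enzyme PSAT1 (0.75), DDIT3 (0.60) and asparagine synthetase, ASNS (0.60), higher, and 7 were higher after centring. Growth factor and immediate early genes were higher in 8 of 20 cases and lower in 1, with FOSL1 at 146, 123, 78.9 and 113 TPM against 30.9 to 74.7 TPM (median 42.9) (1.30 ± 0.094, adjusted p = 1.65e-05). Genes of protein folding stress in the endoplasmic reticulum gave 1 higher (HSPA5 0.26) and 2 lower of 15. These counts are within about 1 gene of the shares of all tested genes (13.7% higher, 8.56% lower) and are no result about this list.

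The remaining lists are given by their counts of members higher and lower, to be read against 13.7% and 8.56% of all tested genes. Glycolysis had 8 higher and 1 lower of 21 (PFKFB3 1.01, ALDOC -1.05), hypoxia 6 and 2 of 19 (of which EGLN3, at 0.47, reached the level for testing only through replicate 3), apoptosis and pyroptosis 5 and 1 of 19, oxidative stress 4 and 1 of 15 (GCLM 0.68, TXN 0.60), the metal response 1 and 1 of 7, the microRNA machinery 1 and 0 of 12 (XPO5 0.60) and mitochondrially encoded mRNAs 2 and 0 of 13. The last 3 of these are within about 1 gene of those shares. The plot of list medians gives the main lists by transfected RNA.

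**Figure D4:**
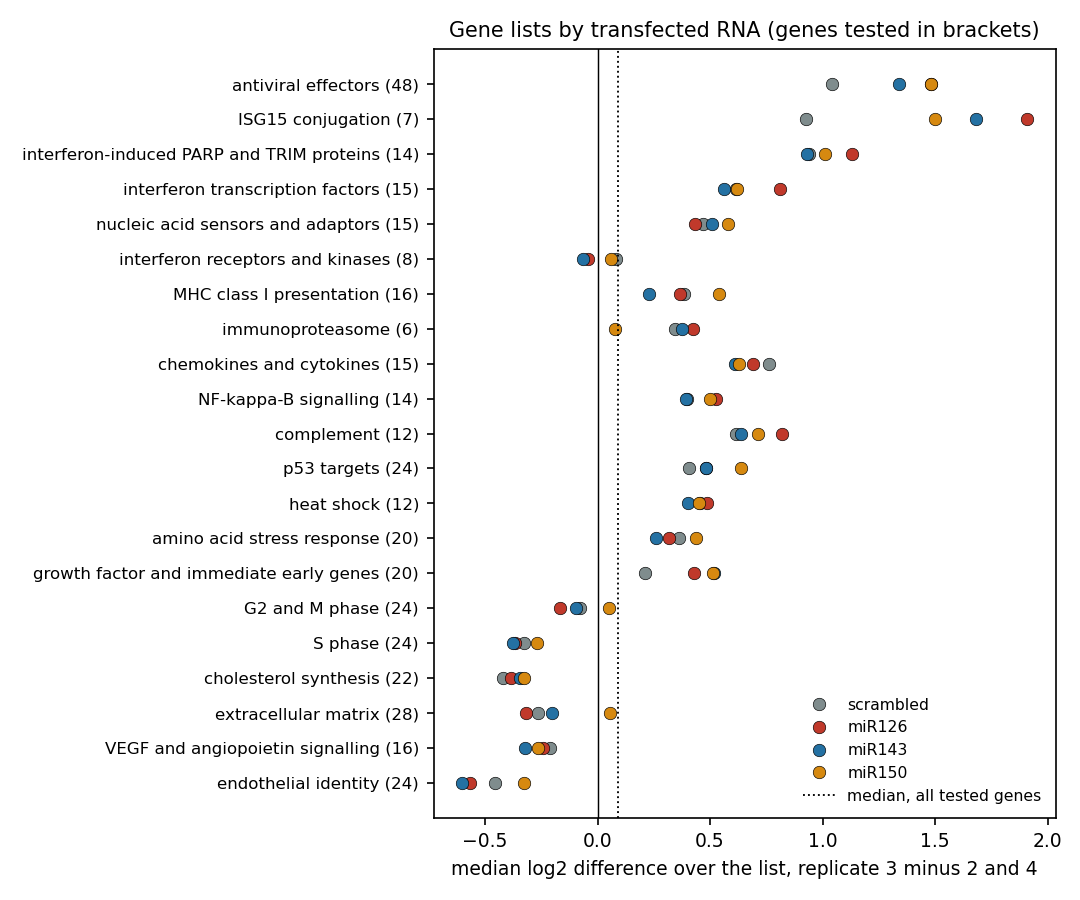
Median log2 difference of replicate 3 minus replicates 2 and 4 (horizontal axis) for 21 gene lists (vertical axis, genes tested in brackets), 1 point per transfected RNA; the dotted line is the median of all tested genes, 0.0917. Medians of antiviral effectors lie between 1.04 and 1.48 and those of endothelial identity between -0.603 and -0.329, while those of interferon receptors and kinases lie on both sides of 0.

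Differences also followed the chromosome on which a gene lies. Of 324 tested genes on chromosome 22, 160 were lower (49.4%) and 5 higher, and of 472 on chromosome 4, 166 were lower (35.2%) and 21 higher, whereas on 19 other chromosomes 3.11% to 11.2% were lower. The median difference was -0.365 on chromosome 22 and -0.298 on chromosome 4, against 0.00856 to 0.177 on those 19. On chromosome 9 the median was 0.258, with 171 of 578 genes higher (29.6%) and 14 lower, and on chromosome 10 it was 0.199, with 115 of 515 higher (22.3%). By transfected RNA the medians were -0.347, -0.392, -0.389 and -0.313 on chromosome 22, -0.365, -0.423, -0.388 and -0.0841 on chromosome 4, and 0.239, 0.213, 0.201 and 0.38 on chromosome 9, so the direction was the same in all 4. With miR150 chromosome 9 did not stand apart, as the median was 0.394 on chromosome 18 and 0.351 on chromosome 10. Against replicate 2 alone the medians of chromosomes 22, 4 and 9 were -0.411, -0.43 and 0.179, and against replicate 4 alone -0.304, -0.193 and 0.335, where the medians of all genes were 0.00636 and 0.172. Between replicates 4 and 2 the medians of chromosomes 1 to 22 and X spread over -0.218 to -0.0961 only.

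These differences ran along the whole of chromosomes 22, 4 and 9. With tested genes of a mean of at least 5 TPM taken in order along a chromosome in windows of about 40, the medians were -0.489 to -0.279 in the 6 windows of chromosome 22, -0.493 to -0.239 in the 9 of chromosome 4 and 0.201 to 0.36 in the 11 of chromosome 9. On chromosome 10 the first 2 windows had 0.411 and 0.423 and the other 7 had 0.109 to 0.196, and in 219 windows of other chromosomes the medians were -0.149 to 0.293. Chromosomes 4 and 22 hold 5.79% of the tested genes and 326 of the 1177 genes that were lower (27.7%), and chromosome 9 holds 4.2% and 171 of the 1886 that were higher (9.07%). Of the 16 S phase genes that were lower 3 lie on chromosomes 4 and 22, of the 13 cholesterol genes 2, of the 15 endothelial identity genes 2 and of the 15 largest falls 3. GSTT1, among those falls, had no position in the annotation used and could not be counted on any chromosome. Once each chromosome was centred on its median, MCM5 differed by -0.73, EMCN by -1.15, MSMO1 by -0.79 and DDX58 by 1.65, and all 4 still passed. These 4 were picked by name and do not stand for the other named genes of these chromosomes. Over all 23 alternatives the weakest estimates were -0.089 for APOL3 and -0.23 for SREBF2, both on chromosome 22. Their calls were lost under 2 and 4 of these alternatives. What lies behind the chromosome medians was not tested.

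**Figure D5:**
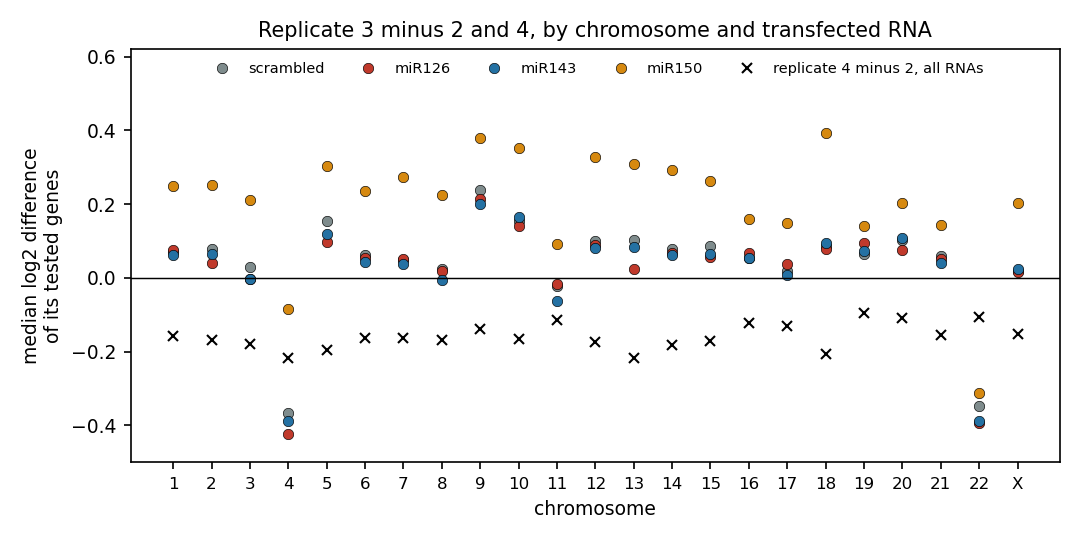
Median log2 difference of the tested genes of each chromosome (vertical axis) by chromosome (horizontal axis), with 1 circle per transfected RNA for replicate 3 minus replicates 2 and 4, and crosses for replicate 4 minus 2 over all transfected RNAs. Chromosomes 4 and 22 lie below 0 and chromosome 9 at or above 0.201 in all 4 transfections, and the crosses spread over a narrower range. With miR150 chromosome 18 (0.394) lies above chromosome 9 (0.38).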

How the data were processed

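RNA from the 12 HMEC-1 libraries was measured by RNA-seq. The deposited values are TPM (abundance per transcript, scaled to transcript length and to the same total in each library), which kallisto estimated, per the submitters' processing notes, in which hg38, GRCh38, FastQC and sleuth are also named, without versions. They leave the transcript annotation and strand use not given in the sources used here. The labels' text on library preparation speaks of microRNA libraries, while the table holds mRNAs and other long transcripts. TPM keep no counts, so the depth is unknown and no count test was run.

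TPM of the 187626 transcripts were added up by gene symbol, and a gene was tested if 3 or more libraries held 1 TPM or more. The test was limma 3.58.1 (R 4.3.3), moderated, two-sided and with a mean-variance trend, on log2(TPM + 1), with the transfected RNA as a block and Benjamini-Hochberg adjustment over all 13750 genes at a threshold of 0.05. A difference (log2) understates the change of low genes. The fit left 7 residual degrees of freedom and a median residual SD of 0.218. On simulated data for the comparison of replicate 3 with replicates 2 and 4, with 13750 genes, 84 of 100 genes changed by 1 and 99 of 100 changed by 2 on the log2 scale were recovered, with 7 false calls. The changed genes were drawn from those with a mean log2(TPM + 1) of 3 or more, and the simulated noise was independent between genes. Recovery of lower genes, and false calls from shifts that many genes of a library share, were therefore not measured. Gene positions are those of GENCODE release 29 (GRCh38). Genes named by symbols that cover several identifiers (IFI27, IRF7, TAP1, HLA genes) are sums over them.

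The members and the 46 gene lists were chosen with earlier results of these data known, so lists carry no test. Named were the 15 largest rises and falls in which replicate 3 lay outside both other libraries of every transfected RNA, up to 5 members of each list with the largest absolute difference, all members of the lists of interferon ligands, receptors, transcription factors and sensors, and transcripts of interferon genes that passed the test. Members named beyond this rule were chosen after their values were seen. Genes of chromosome Y and XIST were left out, and some list members are not reported here. Alternatives were another pseudocount (0.1), 3 other filters, median centring, quantile normalization, removal of a trend on transcript length, no block, no mean-variance trend, the omission of libraries and, added after the data were seen, centring of each chromosome.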

Additional observations from a re-analysis of the deposited data

Results flagged for a closer look

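The differences of the named genes and the list medians were compared among the 4 transfected RNAs, 73 quantities in all, and 3 had 1 value far from the other 3, where chance gives about 1 in 20. The flags were therefore no more frequent than chance gives. The fall of TMEM98 in replicate 3 was -1.89 in cells given miR150, and -2.37 to -2.34 in the others. The median difference of the metal response list was 0.211 in cells given miR143, and 0.0431 to 0.0688 in the others. Replicate 4 of miR143 is also a library rich in short transcripts. With miR143 the mean log2(TPM + 1) of that list was 4.457, 4.475 and 4.476 in replicates 2, 3 and 4. The median difference of the list of microRNA machinery was 0.519 in cells given miR150, and 0.00541 to 0.0518 in the others; replicate 4 of miR150 is a library rich in short transcripts.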

How the results depend on the processing

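No paired analysis was possible because the replicate number is itself what is compared; libraries were matched on the transfected RNA instead. Of 203 genes named, 126 kept their call under every alternative, 63 lost it under at least 1, 14 gained one and 0 changed direction while called. Calls lost most often were those of EGLN3 (under 17 of 21 alternatives), CTSS (14 of 23), CGAS (13 of 23), and FADS2 and PSMB6 (12 of 23). AURKB and TEK lost theirs under 11 of 23, and CCNB2, PTPN1 and VEGFA under 9 of 23. Replicate 3 against 2 and 4 gave 885 higher and 500 lower without the block, 1873 lower after quantile normalization, 2253 lower after removal of the length trend and 2195 lower without the 2 libraries rich in short transcripts, where transcripts gave 1078 lower. Against replicate 2 it gave 1782 lower after removal of the length trend, and 2067 higher and 1922 lower without those 2 libraries. Against replicate 4 it gave 1732 higher and 2125 lower after centring on the median gene, 1972 and 2101 after quantile normalization, 1739 and 1878 with each chromosome centred (an alternative chosen after seeing the data), 2464 lower after removal of the length trend and 1604 higher without those 2 libraries. Replicate 4 against 2 gave 1 higher after removal of the length trend. The interaction gave 1418 genes with no filter on low values, of which 1400 were below the level used for testing and 1235 were above 0 in at most 3 libraries. The cause of these shifts was not tested. With each library left out in turn, replicate 3 against 2 and 4 gave 1144 (without miR150 replicate 3) to 2265 higher and 698 (without miR143 replicate 3) to 1666 lower, against 2 813 (without miR126 replicate 2) to 1689 and 649 (without miR143 replicate 3) to 1500, and against 4 1589 (without miR150 replicate 3) to 4123 and 652 (without miR143 replicate 4) to 1232. Replicate 4 against 2 gave 0 to 1 in each direction, the interaction 0 to 1, and transcripts 360 to 1036 higher and 260 to 930 lower, lowest without miR143 replicate 3 and highest without miR150 replicate 4. The unknown depth leaves the precision of low genes unknown, and no interval for counting error was given.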
